A study of Mus musculus with 4 samples.

Results

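The genes described here are 9 AP-1 and early response factors. They are *Fos*, *Fosb*, *Fosl1* and *Fosl2* of the Fos family, *Jun*, *Junb* and *Jund* of the Jun family, and *Egr1* and *Ier2*. They were taken by symbol from the 32285 genes of the deposited tables, and all 9 were found in each of the 4 libraries. The rule itself used no measured value, but the members were chosen with earlier results of these data known. Their levels were read in every droplet barcode with 5000 to 75000 unique molecular identifiers (UMIs, tags that let copies of the same RNA molecule be counted once), 200 to 7500 genes and under 10% mitochondrial UMIs. These limits left 7629 cells in iWAT_DFAT, 6464 in eWAT_DFAT, 7424 in iWAT_SVF and 6745 in eWAT_SVF.

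The study asked how fat cells that lose their lipid and turn into fibroblast-like cells differ from the stromal progenitors of the same fat depot. Cells of the groups iWAT_DFAT and eWAT_DFAT are de-differentiated fat (DFAT) cells, grown from floating mature adipocytes of inguinal (iWAT) or epididymal (eWAT) white adipose tissue kept in ceiling culture, a flask filled to the top so that the adipocytes attach to its upper wall. The iWAT_SVF and eWAT_SVF libraries hold the adherent cells grown from the stromal vascular fraction (SVF) of the same depots, for which the study uses the name adipose stem and progenitor cells (ASPCs). All cells came from chow-fed male C57BL/6J mice without a transgene or drug, and neither the age nor the number of pooled mice for these cultures was given in the sources used here. In all 4 groups the adherent cells were detached with warm trypsin, stained with 7-AAD, sorted and loaded on 10x Genomics 3′ chips. Each group is 1 library, so the spread between cultures of a group is unknown, and no test or p-value is given. Every interval below covers counting error only.

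Fos and Jun proteins pair through a leucine zipper to form AP-1, which binds DNA at AP-1 and CRE-like sites, and Fos proteins bind only as partners of Jun proteins or related factors. *Fos*, *Fosb*, *Jun*, *Junb*, *Egr1* and *Ier2* are textbook immediate early genes: serum, growth factors, stretch and cell detachment switch them on through MAP kinases, serum response factor and CREB before any new protein is made, and the transcripts decay quickly. *Fosl1* (Fra-1) and *Fosl2* (Fra-2) follow more slowly in many cells and depend partly on AP-1 itself, while *Jund* is transcribed steadily in most cells.

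Because *Fos*, *Fosb*, *Jun* and *Junb* were high together in iWAT_DFAT, the 250 bases before their RefSeq start sites are printed below in the direction of transcription. They are RefSeq promoter windows on GRCm38.p6, available here for 6 of the 9 genes and not for *Fosl1*, *Egr1* and *Ier2*. The windows are chr12:85473640-85473889 on the plus strand for *Fos*, chr7:19310046-19310295 on the minus strand for *Fosb*, chr4:95052223-95052472 on the minus strand for *Jun* and chr8:84978749-84978998 on the minus strand for *Junb*. Capitals mark the CRE core TGACG, the TATA box TATAAA, the Egr binding motif GCGGGGGCG and the CRE-like motif TGACATCA, each searched on both strands.
Fos: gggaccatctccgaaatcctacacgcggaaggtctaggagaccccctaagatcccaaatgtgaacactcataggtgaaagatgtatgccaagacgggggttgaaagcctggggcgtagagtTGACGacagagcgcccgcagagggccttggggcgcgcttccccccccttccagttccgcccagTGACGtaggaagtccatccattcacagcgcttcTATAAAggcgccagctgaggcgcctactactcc
Fosb: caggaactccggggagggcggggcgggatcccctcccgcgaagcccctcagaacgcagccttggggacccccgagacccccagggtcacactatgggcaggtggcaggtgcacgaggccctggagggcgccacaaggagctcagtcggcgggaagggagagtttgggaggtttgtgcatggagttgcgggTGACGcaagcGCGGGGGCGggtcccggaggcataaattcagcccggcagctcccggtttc
Jun: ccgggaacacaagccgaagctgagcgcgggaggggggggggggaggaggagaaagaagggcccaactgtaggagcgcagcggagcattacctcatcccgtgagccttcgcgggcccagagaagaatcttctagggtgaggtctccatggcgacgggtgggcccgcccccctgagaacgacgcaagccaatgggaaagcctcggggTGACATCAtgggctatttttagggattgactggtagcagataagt
Junb: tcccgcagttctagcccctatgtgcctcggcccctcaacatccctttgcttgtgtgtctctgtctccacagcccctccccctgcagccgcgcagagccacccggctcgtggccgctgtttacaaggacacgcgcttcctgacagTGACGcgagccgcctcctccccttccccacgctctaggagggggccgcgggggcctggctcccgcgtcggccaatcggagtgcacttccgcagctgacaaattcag

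TGACG stood in the *Fos*, *Fosb* and *Junb* windows, 3 of the 6 available, against 17.8% of the 32851 promoter windows of the same length. *Fos* held it 129 to 125 and 66 to 62 bases before the start, *Fosb* 60 to 56 and *Junb* 106 to 102 bases before it. TATAAA stood 33 to 28 bases before the *Fos* start and in 12.4% of all windows. GCGGGGGCG stood 50 to 42 bases before the *Fosb* start, where it overlaps a GC box GGGCGG, and in the *Fosl2* window, against 2.57% of all windows. TGACATCA stood 45 to 38 bases before the *Jun* start and in 2.93% of all windows. The full CRE TGACGTCA (1.55% of all windows), the AP-1 sites TGACTCA and TGAGTCA (4.46% together) and the CArG box of serum response factor (1.47%) matched none of the 6 windows, which says only that these letters are not within these windows. The ETS core CCGGAAGT (2.88%) also matched none. The GC box was in 4 of the 6 windows and in 32.7% of all. The windows follow RefSeq start sites, which differ from the GENCODE gene starts given next: the *Fosl2* window (32136222 to 32136471) lies inside the GENCODE gene and the *Jund* window (70697489 to 70697738) well upstream of it, so the counts over 6 windows mix positions relative to the annotated genes.

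In the GENCODE annotation of GRCm38 the 9 genes are compact. *Fos* (ENSMUSG00000021250) runs from base 85473890 to 85477273 of chromosome 12 on the plus strand, and *Fosb* (ENSMUSG00000003545) from 19302696 to 19310051 of chromosome 7 on the minus strand. *Fosl1* (ENSMUSG00000024912) lies at 5447547 to 5455946 on chromosome 19 and *Fosl2* (ENSMUSG00000029135) at 32135801 to 32157842 on chromosome 5, both on the plus strand. *Jun* (ENSMUSG00000052684) lies at 95049034 to 95052222 on chromosome 4 and *Junb* (ENSMUSG00000052837) at 84974484 to 84978718 on chromosome 8, both on the minus strand. *Jund* (ENSMUSG00000071076) is on the plus strand of chromosome 8 at 70698949 to 70700616, and *Ier2* (ENSMUSG00000053560) on its minus strand at 84661331 to 84662852. *Egr1* has the identifier ENSMUSG00000038418. *Jun*, *Jund* and *Ier2* have no intron, and the most intronic sequence in any member is the 12362 bases of *Fosl2*. *Junos*, *Ccdc85b*, *Prdx2* and *Gm11175* overlap *Jun*, *Fosl1*, *Junb* and *Jund* on the opposite strand. The strand setting of the counting is not given in the sources used here, and the part of these partners in the counts was not tested.

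The cells held 183664704 to 199357348 UMIs per library, with medians per cell of 22111 in iWAT_DFAT, 27425 in eWAT_DFAT, 24930 in iWAT_SVF and 27617 in eWAT_SVF. Any pair of libraries shared 13 to 20 cell barcodes. At least 3 of the 9 ASPC markers were detected in 7556 iWAT_DFAT cells, 5711 eWAT_DFAT cells, 7090 iWAT_SVF cells and 6387 eWAT_SVF cells, and the summed level of the list was 4570, 1210, 3620 and 3050 CPM (UMIs of the genes per 1000000 UMIs of all cells of a library) in that order. Adipocyte markers summed to 23.1 and 96.2 CPM in iWAT_DFAT and eWAT_DFAT and to 0.446 and 1.23 in iWAT_SVF and eWAT_SVF, with *Lep* at 0 UMIs in every library, under the 3 counts that a 0 allows. Cells with 3 or more markers of endothelial, mesothelial, neural, pericyte, immune or adipocyte cells made up 0.826%, 6.27%, 3.17% and 10.4% of the 4 libraries. The file headers name Cell Ranger 7.1.0 for 3 libraries and version 4 for iWAT_SVF, so a difference between iWAT_SVF and another library and a difference of counting version cannot be told apart.

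The plot of levels by library shows the pattern that the rest of the text follows. Of the 9 members, 8 had their highest level in iWAT_DFAT, the exception being *Jund*, and *Fosl1* alone was high in both DFAT libraries.

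**Figure D1:**
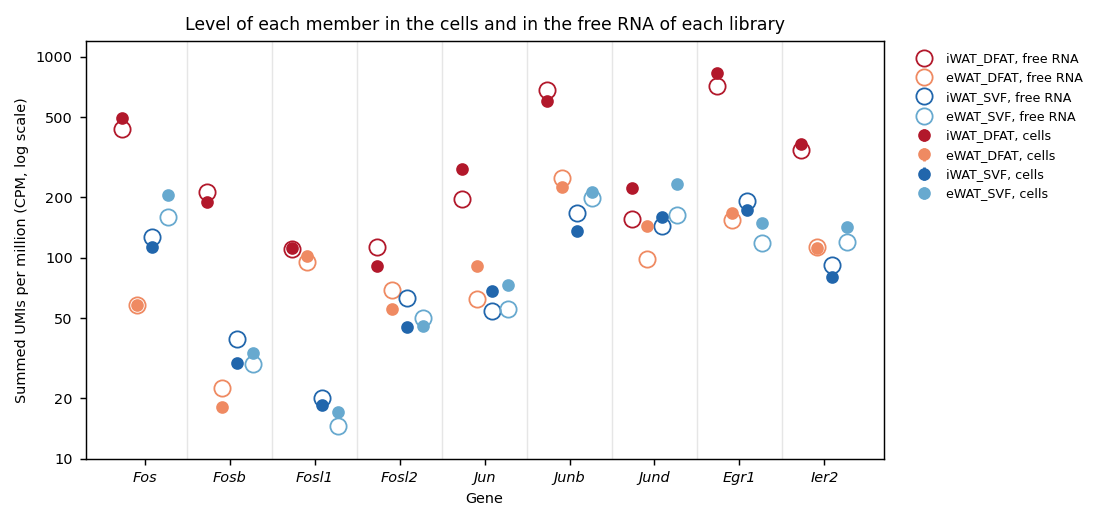
CPM (log axis) of each member in the cells of the 4 libraries (filled circles, with exact 95% Poisson intervals that are smaller than the symbols) and in the free RNA of droplets with 1 to 100 UMIs (open circles). *Fos*, *Fosb*, *Jun*, *Junb*, *Egr1* and *Ier2* stand highest in iWAT_DFAT, *Fosl1* is near 100 CPM in both DFAT libraries and under 20 CPM in the cells of both SVF libraries, and the free RNA follows the cells.

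*Fos* encodes the founding member of its family. It was at 493 CPM (95% interval 489 to 496) in iWAT_DFAT, 58.4 (57.3 to 59.5) in eWAT_DFAT, 114 (112 to 115) in iWAT_SVF and 204 (203 to 206) in eWAT_SVF. The DFAT libraries were thus the highest and the lowest of the 4, and the SVF libraries lay between them. *Fos* was 8.44-fold higher in iWAT_DFAT than in eWAT_DFAT (log2 ratio 3.08, interval 3.05 to 3.11) and 4.34-fold higher than in iWAT_SVF. Between the eWAT libraries the order was the opposite, with eWAT_DFAT 3.50-fold below eWAT_SVF (log2 ratio -1.81, interval -1.84 to -1.78). Between the SVF libraries iWAT_SVF was 1.80-fold below eWAT_SVF.

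*Fosb*, the closest relative of *Fos*, was at 188 CPM (186 to 190) in iWAT_DFAT, 17.96 (17.35 to 18.58) in eWAT_DFAT, 29.7 (29.0 to 30.5) in iWAT_SVF and 33.7 (32.9 to 34.5) in eWAT_SVF. The order of the libraries was that of *Fos*. The difference between the DFAT libraries was 10.5-fold (log2 ratio 3.39, interval 3.34 to 3.44), the largest of any member in any of the 4 comparisons. The SVF libraries differed by 1.13-fold, and eWAT_DFAT was 1.88-fold below eWAT_SVF, short of 2-fold.

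*Fosl1*, which encodes Fra-1 and lacks the transactivation domain of *Fos*, had another order. It was at 112 CPM (110 to 113) in iWAT_DFAT, 101 (99.9 to 103) in eWAT_DFAT, 18.4 (17.8 to 19.0) in iWAT_SVF and 17.1 (16.5 to 17.7) in eWAT_SVF. Both DFAT libraries were high and both SVF libraries low, and within each cell source the depots were within 1.10-fold of each other. The DFAT library was 6.07-fold above the SVF library in iWAT (log2 ratio 2.60, interval 2.55 to 2.65) and 5.94-fold above it in eWAT (2.57, interval 2.52 to 2.62). No other member passed 2-fold between DFAT and SVF libraries upward in both depots. Between the DFAT libraries its log2 ratio was 0.14, where the median of all genes was 0.09.

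*Fosl2*, encoding Fra-2, varied less. It was at 90.9 CPM (89.5 to 92.3) in iWAT_DFAT, 55.7 (54.6 to 56.8) in eWAT_DFAT, 45.2 (44.3 to 46.2) in iWAT_SVF and 45.7 (44.8 to 46.7) in eWAT_SVF. The intervals of the SVF libraries overlap, the only pair of neighbours for any member that do. The ratio of iWAT_DFAT to iWAT_SVF was 2.01 (log2 1.01, interval 0.97 to 1.04), so it stands on the 2-fold line itself.

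*Jun* encodes a strong activator of transcription and is able to pair with itself. It was at 275 CPM (272 to 277) in iWAT_DFAT, 91.1 (89.7 to 92.4) in eWAT_DFAT, 68.3 (67.1 to 69.4) in iWAT_SVF and 73.2 (72.0 to 74.4) in eWAT_SVF. One library stood apart and the other 3 lay within a narrow band. It was 3.02-fold higher in iWAT_DFAT than in eWAT_DFAT and 4.02-fold higher than in iWAT_SVF.

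*Junb*, a Jun protein that in many settings restrains *Jun*, was at 600.3 CPM (596.7 to 603.8) in iWAT_DFAT, 224 (222 to 226) in eWAT_DFAT, 135 (133 to 137) in iWAT_SVF and 212 (210 to 214) in eWAT_SVF. The eWAT libraries were 1.06-fold apart, and iWAT_SVF was the lowest. *Jund* was at 222 CPM (220 to 224) in iWAT_DFAT, 143 (141 to 145) in eWAT_DFAT, 160 (158 to 161) in iWAT_SVF and 233 (231 to 235) in eWAT_SVF. It was the only member whose highest level was not in iWAT_DFAT, and none of its 4 ratios reached 2-fold, the largest being 1.63 between the eWAT libraries.

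*Egr1*, a zinc finger factor and a standard reader of MAP kinase and serum response factor activity, was at 826 CPM (822 to 830) in iWAT_DFAT, 168 (166 to 170) in eWAT_DFAT, 172 (170 to 174) in iWAT_SVF and 149 (148 to 151) in eWAT_SVF. It was 4.93-fold higher in iWAT_DFAT than in eWAT_DFAT (log2 ratio 2.30, interval 2.28 to 2.32) and 4.81-fold higher than in iWAT_SVF, while the other 3 libraries were within 1.15-fold for each pair compared. *Ier2*, a nuclear protein induced with the same kinetics, was at 367 CPM (365 to 370) in iWAT_DFAT, 111 (110 to 113) in eWAT_DFAT, 79.7 (78.5 to 80.9) in iWAT_SVF and 143 (141 to 144) in eWAT_SVF. Its order was that of *Fos* at the top but not at the bottom, where iWAT_SVF was lowest.

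A gene was counted as past 2-fold when it had at least 5 CPM in the higher library of a pair, and all 9 members passed that minimum in each comparison. In iWAT_DFAT against eWAT_DFAT, 6 of the 9 members were at least 2-fold higher in iWAT_DFAT (*Fos*, *Fosb*, *Jun*, *Junb*, *Egr1* and *Ier2*) where 8.29% of the 10384 genes were, and none was 2-fold lower, where 3.95% were. The median log2 ratio was 1.59 for the members and 0.09 for all genes. In iWAT_DFAT against iWAT_SVF, 8 of the 9, all but *Jund*, were at least 2-fold higher, against 9.91% of 10426 genes, and none lower, against 5.18%. The median was 2.15 for the members and 0.09 for all genes. Both counts share the iWAT_DFAT library and are not 2 independent observations of it.

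The comparisons that leave out iWAT_DFAT gave few such genes. In iWAT_SVF against eWAT_SVF no member was past 2-fold in either direction, where 2.94% of 10135 genes were higher and 3.94% lower in iWAT_SVF. The lowest log2 ratios there were those of *Fos* (-0.85) and *Ier2* (-0.84), and the highest that of *Egr1* (0.20). In eWAT_DFAT against eWAT_SVF, *Fosl1* was past 2-fold upward, against 6.44% of 10298 genes, and *Fos* downward, against 6.67%. The share of the members in this comparison, 1 of 9 in each direction, gives no result about the group.

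**Figure D2:**
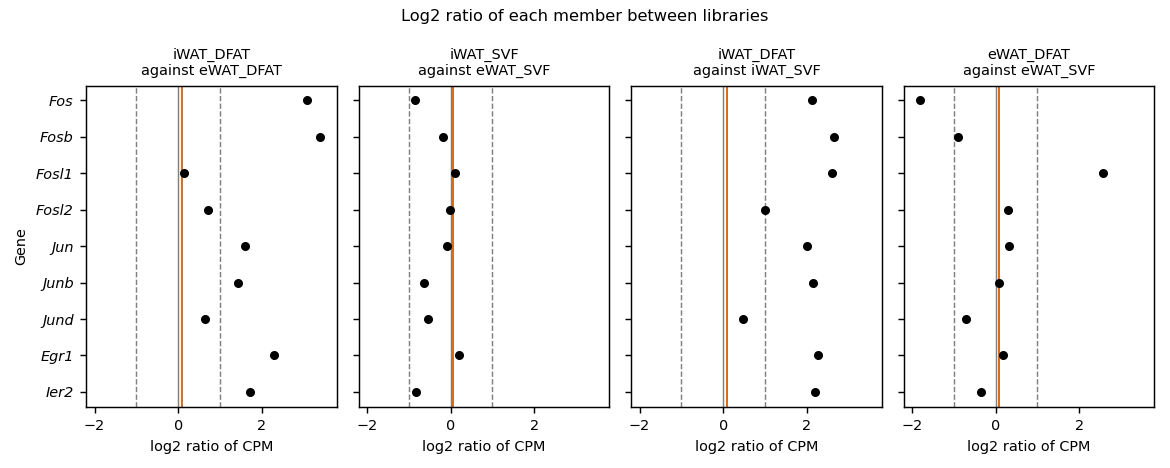
Log2 ratio of CPM (horizontal axis) of each member in the 4 comparisons, with exact conditional 95% intervals that are mostly smaller than the points. Dashed lines mark 2-fold, and the orange line the median of all genes. Points lie past 2-fold to the right for 6 and 8 genes in the comparisons with iWAT_DFAT, and *Fosl1* lies near 2.6 in both comparisons of DFAT with SVF.

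The Fos family summed to 884, 233, 207 and 301 CPM in iWAT_DFAT, eWAT_DFAT, iWAT_SVF and eWAT_SVF, and its makeup differed between the libraries. Shares within the family were compared between libraries and not between its genes. *Fos* itself gave 55.8% of the Fos family UMIs in iWAT_DFAT, 25% in eWAT_DFAT, 54.9% in iWAT_SVF and 67.9% in eWAT_SVF. The share in eWAT_DFAT was the lowest of the 4. *Fosl1* gave 12.7%, 43.4% (exact binomial interval 43.0 to 43.9), 8.91% and 5.68% in the same order. The eWAT_DFAT cells thus had the highest *Fosl1* share of the 4 libraries, although the level of *Fosl1* itself was 1.10-fold below that of iWAT_DFAT. *Fosl2* gave 10.3%, 23.9%, 21.9% and 15.2%. In the Jun family, which summed to 1097, 458, 363 and 518 CPM, *Jund* gave 20.2% in iWAT_DFAT, 31.2% in eWAT_DFAT, 44.0% in iWAT_SVF and 45.0% in eWAT_SVF. *Jun* gave 25%, 19.9%, 18.8% and 14.1%, and *Junb* 54.7%, 48.9%, 37.2% and 40.9%, so both DFAT libraries had a smaller *Jund* share than both SVF libraries.

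To count cells at one depth, each cell was thinned to 5000 UMIs, which every cell had. *Fos* was detected in 76.8% of the iWAT_DFAT cells (exact binomial interval 75.8 to 77.8), 21.1% of the eWAT_DFAT cells (20.1 to 22.1), 36.4% of the iWAT_SVF cells (35.3 to 37.5) and 51.9% of the eWAT_SVF cells (50.7 to 53.1). At full depth the shares were 94.9%, 53.7%, 72.4% and 84.0%. *Fosl1* was detected after thinning in 39.4%, 35.9%, 7.48% and 7.31% of the cells. *Egr1* was detected in 94.1%, 47.9%, 49.9% and 45.0%, and *Junb* in 90.3%, 61.3%, 44.3% and 58.7%. The order of the libraries by detected cells was that of the CPM for these 4 genes. No cell type here is known to lack these genes, so no share in such a type can be set beside them. The free RNA held *Fos* at 437, 57.8, 126 and 159 CPM and *Fosl1* at 110 and 95 CPM in iWAT_DFAT and eWAT_DFAT, with intervals of 16.9 to 23.6 in iWAT_SVF and 11.8 to 17.6 in eWAT_SVF, near the levels of the cells of each library, and its part in the shares of cells was not tested.

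Summed over the 9 genes, the high level of iWAT_DFAT was spread over its cells and did not come from a small group of them. The 9 genes together gave a median of 16 UMIs per thinned cell in iWAT_DFAT, with 10% of cells at 7 or fewer and 10% at 27 or more. The medians were 4 in eWAT_DFAT, 4 in iWAT_SVF and 5 in eWAT_SVF, with the highest 10% of cells at 10, 8 and 11 or more. The lowest quartile of iWAT_DFAT cells ended at 11 UMIs, above the 75th percentile of each other library (7, 6 and 8). For *Fos* alone, the lowest quartile of iWAT_DFAT cells ended at 1 UMI and the 75th percentile of eWAT_SVF was 2. No UMI of any of the 9 genes was left in 1.11% of the thinned iWAT_DFAT cells, 5.51% of the eWAT_DFAT cells, 7.26% of the iWAT_SVF cells and 4.97% of the eWAT_SVF cells. In eWAT_DFAT a tail was present as well: 1% of its cells held 21 or more UMIs, up to 55, where 1% of eWAT_SVF cells held 17 or more, up to 28. The Fano factor of *Fos* (variance over mean, 1 for counting noise alone) was 3.03, 2.62, 1.83 and 1.99 in the 4 libraries, and that of *Fosl1* 1.18, 1.13, 1.08 and 1.09. Counts of *Fos* therefore varied between cells beyond counting noise in each library. Those of *Fosl1* were close to it, but at a given relative spread this factor falls toward 1 with the mean. Mean UMIs per thinned cell were 2.73, 0.353, 0.604 and 1.07 for *Fos* and 0.543, 0.476, 0.0804 and 0.0792 for *Fosl1*. The factors of these genes can thus be set side by side only in eWAT_DFAT, where *Fos* had the lower mean and the higher factor.

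Over thinned cells, on the scale of ln(UMIs + 1), *Fos* and *Fosb* had the highest Pearson r of the 36 pairs in iWAT_DFAT (0.43), eWAT_DFAT (0.35) and iWAT_SVF (0.21), and in eWAT_SVF the same r as *Fos* and *Egr1* (0.23). Such correlations are a description over 6464 to 7629 cells of 1 culture, which share the library and its depth, and sparse counts pull them toward 0. *Fos* and *Jun* had r of 0.31, 0.24, 0.11 and 0.14, and *Fos* and *Egr1* 0.26, 0.21, 0.19 and 0.23. *Junb* went with *Egr1* (0.25, 0.22, 0.17 and 0.14) and *Ier2* (0.20, 0.20, 0.15 and 0.18) more than with *Jun* (0.08, 0.16, 0.00 and 0.05). *Fosl1* had r between -0.05 and 0.04 with each of the other 8 members in each library. Counts this sparse cannot show whether a relation is present.

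**Figure D3:**
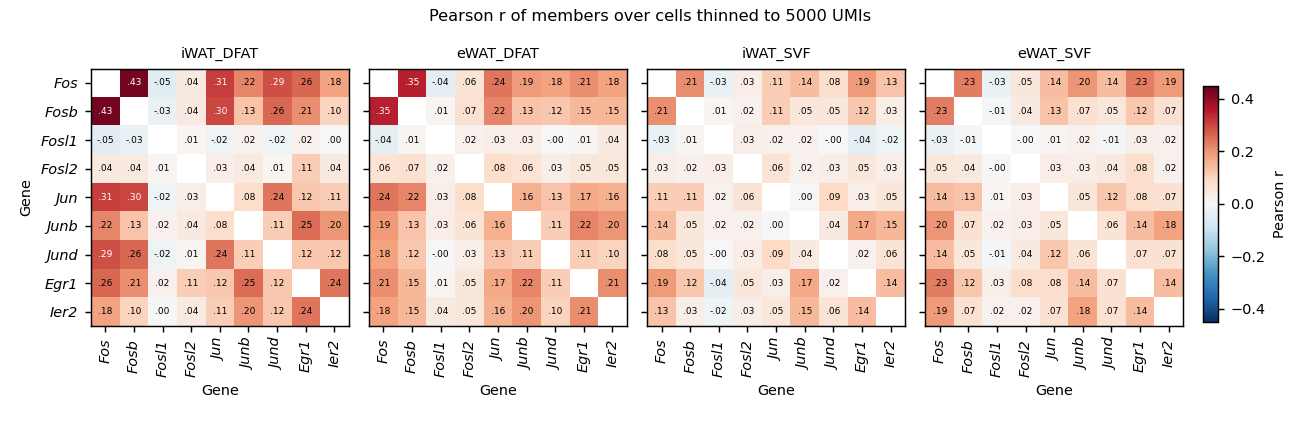
Pearson r between members over cells thinned to 5000 UMIs, 1 panel per library, with the value in each square. The *Fos* and *Fosb* square is the highest in each panel, level with *Fos* and *Egr1* in eWAT_SVF, and the *Fosl1* row and column are near 0.

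Across all 7071 genes with a UMI in at least 5% of the thinned cells of every library, the genes whose counts went most with each member were ranked by the mean r of the 4 libraries. For *Fos* they were *Fosb* (0.30), *Egr1* (0.22), *Jun* (0.20), *Col3a1* (0.20), a fibrillar collagen, and *Serping1* (0.19), the C1 inhibitor. For *Fosb* they were *Fos*, *Jun* (0.19), the nuclear RNA *Malat1* (0.17), *Egr1* (0.15) and *Fndc3b* (0.13). *Fosl2* had *Malat1* (0.11), *Slit3* (0.10), *Fndc3b*, *Rbms3* and the nuclear RNA *Neat1* (0.09 each) and no member. Other members led the lists of *Junb* (*Egr1* 0.20, *Fos* 0.18, *Ier2* 0.18, then *Btg2* and *Zfp36* at 0.16), *Jund* (*Fos* 0.17, *Jun* 0.15, *Fosb* 0.12, then *Col3a1* 0.12 and *Serping1* 0.11) and *Ier2* (*Junb* 0.18, *Egr1* 0.18, *Fos* 0.17, then *Col3a1* 0.15 and *Ifitm3* 0.14). *Egr1* went most with *Slit3* (0.25), a secreted guidance factor of fibroblasts, followed by *Fos* (0.22), *Col3a1* (0.22), *Rbms3* (0.21) and *Col1a2* (0.21). *Fosl1* went most with *Hmga2* (0.11), *Txnrd1* (0.09), *Ptgs2* and *Csf1* (0.08 each), values at which sparse counts show little. *Jun* had *Fos* (0.20) and *Fosb* (0.19) first, then *Col18a1* (0.16), *Jund* (0.15) and *Gpm6b* (0.11). The last result turned on 1 library: r with *Col18a1* was 0.33 in iWAT_SVF and at most 0.13 in the others, and r with *Gpm6b* was 0.25 in iWAT_SVF and at most 0.08 in the others.

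The iWAT_SVF cells with 3 or more markers of neural cells, 142 in number, were high in *Jun*. Its level in them was 448 CPM (420 to 477), against 63.4 (62.2 to 64.5) in the 7189 cells of that library without markers of another type. The neural-marked cells were shallow, with a median of 11453.5 UMIs against 25174, and over all iWAT_SVF cells *Jun* stood at 102 CPM in the quartile with the fewest UMIs and 60.9 in the quartile with the most. The part of depth in the *Jun* level was not tested. In them *Fos* (84.6 CPM), *Egr1* (57.2) and *Ier2* (45.6) in contrast were below the 113, 173 and 80.3 CPM of the other cells. *Fosl2* was at 102 CPM in them and 44.4 in the other cells. With these and the other marked cells left out, no log2 ratio of a member changed its side of 2-fold.

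Endothelial-marked cells were high in *Jun* in 3 of the 4 libraries, at 286 CPM (264 to 309) in the 139 of eWAT_DFAT, 191 (167 to 219) in the 57 of iWAT_SVF and 216 (201 to 232) in the 167 of eWAT_SVF. In the cells of these libraries without markers of another type *Jun* was at 87.5, 63.4 and 69.5 CPM. The marked cells were shallower in each, with medians of 10641, 16075 and 17173 UMIs against 27873, 25174 and 28070. The 18 endothelial-marked cells of iWAT_DFAT had *Jun* at 231 CPM (185 to 284), against 274 in the unmarked cells there. In eWAT_DFAT, 134 cells with 3 or more adipocyte markers had *Fos* at 180 CPM (165 to 195), against 54.1 (53.0 to 55.1) in the 6059 cells without markers of another type, and *Fosl1* at 64.4 CPM (55.8 to 73.9) against 103 (102 to 105). *Fos* in the endothelial-marked cells there had an interval of 181 to 219 CPM. The median depth of the adipocyte-marked cells of eWAT_DFAT was 21809 UMIs. The 17 adipocyte-marked cells of iWAT_DFAT had *Fos* at 441 CPM (380 to 510), against 494 in the unmarked cells there. Their *Fosl1* was at 138 CPM (105 to 179), against 112. The mesothelial-marked cells of eWAT_SVF, 491 in number, had *Fosl1* at 11.4 CPM (9.6 to 13.4) and *Jund* at 296 (286 to 305), against 17.3 and 228 in the unmarked cells, at medians of 21585 and 28070 UMIs. The part of depth in these levels was not tested. In iWAT_DFAT only 63 cells carried 3 markers of another type, and *Fos* in the other 7566 was 494 CPM.

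Within each library the immediate early members were higher in cells with fewer UMIs. From the lowest to the highest quartile of cells by UMIs, *Fos* went from 744 to 359 CPM in iWAT_DFAT, from 128 to 36.8 in eWAT_DFAT, from 149 to 93.8 in iWAT_SVF and from 256 to 176 in eWAT_SVF. *Fosb*, *Jun*, *Junb*, *Jund*, *Egr1* and *Ier2* were also lower in the deepest quartile in all 4 libraries, with log2 differences from -1.50 to -0.12. *Fosl1* went the other way in all 4, from 102 to 125, 80.1 to 113, 13.8 to 20.8 and 13.8 to 18.9 CPM. *Fosl2* differed by -0.23 to 0.11. A UMI total is the denominator of each CPM as well as the basis of this split, and what else sets it was not tested. The highest quartile of iWAT_DFAT, at 359 CPM, had more *Fos* than the lowest quartile of each other library.

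Heat shock genes, which encode chaperones and their helpers, and genes of G2 and M phase split the members in the same manner. *Fos* in iWAT_DFAT was at 705 CPM in the quartile of cells with the fewest heat shock UMIs after thinning and at 310 CPM in the quartile with the most, and in the other libraries it went from 84.8 to 43.1, 144 to 83.4 and 229 to 173 CPM. All members other than *Fosl1* were lower in the quartile with the most heat shock UMIs in all 4 libraries, with log2 differences from -1.32 to -0.05, and *Fosl1* was higher, by 0.28 to 1.11. Abundant chaperones carry much of this list's sum: in iWAT_DFAT *Hsp90ab1* was at 2580 CPM of 6620 for the list, and *Hspa1a* at 9.59. The split therefore does not rank cells by the stress-inducible genes of the list. For the G2/M list, *Fos* went from 610 to 404, 84.3 to 35.4, 137 to 86.2 and 231 to 158 CPM, and *Fosl1* from 104 to 123, 87.0 to 119, 15.0 to 23.3 and 14.1 to 22. These quartiles hold cells of different depth, and the part of depth in them was not tested. By mitochondrial share, *Egr1* (log2 difference 0.29 to 0.73), *Fosb* (0.35 to 0.83) and *Fosl2* (0.23 to 0.60) were higher in the quartile with the highest share in all 4 libraries, while *Ier2* differed by -0.42 to 0.04 and *Fosl1* by -0.13 to 0.15. The median mitochondrial share of the cells was 3.12% in iWAT_DFAT, 1.95% in eWAT_DFAT, 2.18% in iWAT_SVF and 2.25% in eWAT_SVF. Its part in the levels of the members was not tested.

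**Figure D4:**
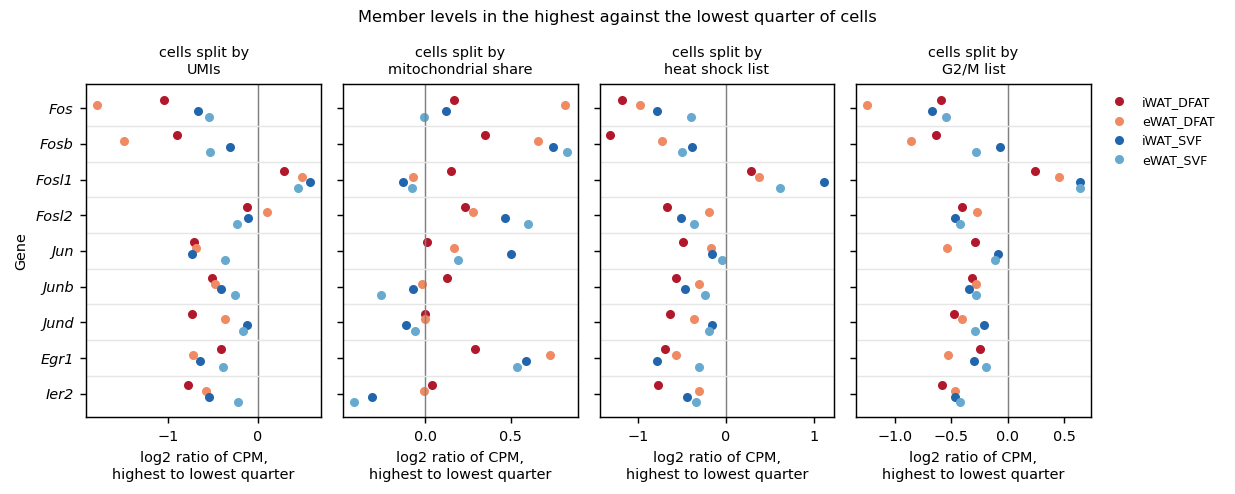
Log2 ratio of CPM (horizontal axis) of each member between the highest and the lowest quartile of cells in each library (colours), split by UMIs, mitochondrial share, heat shock genes and G2/M genes. *Fosl1* is right of 0 for UMIs, heat shock and G2/M in all 4 libraries, and *Fos*, *Jun*, *Junb*, *Jund*, *Egr1* and *Ier2* are left of it.

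Other immediate early genes, a list of 26 beside the members, were in part high in the same library. In iWAT_DFAT against eWAT_DFAT, 24 of them reached 5 CPM, 12 were at least 2-fold higher (background 8.29%) and 1 lower (3.95%), with a median log2 ratio of 0.92. The largest were the nuclear receptors *Nr4a1*, at 227 against 24.7 CPM (log2 ratio 3.20), and *Nr4a3*, at 36.6 against 4.42 CPM (3.05), and in the other direction *Ccn2*, a matricellular protein and YAP target, at 34.4 against 242 CPM (-2.82). In iWAT_DFAT against iWAT_SVF 14 of 24 were higher (background 9.91%) and again *Ccn2* lower (5.18%), with *Egr4* (5.56 against 0.145 CPM), *Egr3* (95.6 against 3.69) and *Gem* (60.3 against 4.07) the largest. In eWAT_DFAT against eWAT_SVF 8 of 23 were higher (background 6.44%) and 1, *Klf4*, lower (6.67%), led by *Gem* (18.2 against 4.56 CPM), *Btg1* (70.1 against 18.5) and *Egr3* (14.4 against 3.93). All 8 (*Egr2*, *Egr3*, *Ier3*, *Nr4a2*, *Klf10*, *Btg1*, *Gem* and *Sgk1*) were also among the 14 of iWAT, so they were past 2-fold in DFAT against SVF in both depots, as *Fosl1* was. The share of all genes past 2-fold upward in both depots was not counted, so this overlap gives no result about the list. *Nr4a1* was at 24.7 CPM in eWAT_DFAT and 34.9 in eWAT_SVF. In iWAT_SVF against eWAT_SVF *Nr4a2* was higher (18.4 against 7.91 CPM), and *Zfp36* (29.2 against 63.4) and *Btg2* (54.8 against 114), whose proteins hasten the decay of mRNA, were lower, 1 and 2 of 21 (background 2.94% and 3.94%).

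Genes known to be regulated by AP-1, such as matrix metalloproteinases and cytokines, were mostly higher in the DFAT than in the SVF library of a depot. In eWAT_DFAT against eWAT_SVF 15 of 19 were at least 2-fold higher (background 6.44%) and none lower (6.67%), with a median log2 ratio of 1.73. The largest were *Areg* (25.7 against 0.137 CPM), a ligand of the EGF receptor, *Spp1* (4250 against 53.0), which encodes osteopontin, and *Mmp13* (6.22 against 0.172). In iWAT_DFAT against iWAT_SVF 10 of 18 were higher (background 9.91%) and *Ccnd1* lower (5.18%), with *Mmp9* (32.6 against 0.361 CPM), *Mmp3* (426 against 21.6) and *Areg* (5.22 against 0.281) the largest. Between the DFAT libraries the list was divided, with 4 of 20 higher in iWAT_DFAT (*Mmp3*, *Mmp9*, *Il6* and *Cd44*; background 8.29%) and 6 lower (*Mmp10*, *Mmp13*, *Hmox1*, *Il11*, *Spp1* and *Areg*; background 3.95%), and a median of -0.57. *Mmp10* stood at 4.24 CPM in iWAT_DFAT and 37.1 in eWAT_DFAT, *Mmp9* at 32.6 and 4.92, and *Hmox1*, the heme oxygenase that *Nfe2l2* also drives, at 119 and 715. In iWAT_SVF against eWAT_SVF 3 of 14 were higher (background 2.94%), *Ccnd1* (179 against 45.5 CPM), *Spp1* (182 against 53.0) and *Ccl2* (257 against 119). These genes have many other regulators, and no value here ties them to AP-1. Among the members, eWAT_DFAT against eWAT_SVF had *Fosl1* 5.94-fold higher, *Fos* 3.50-fold lower and the others under 2-fold.

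Genes that carry signals to the members gave few calls, near the share of all genes. Of 20 kinases and factors of the MAP kinase and serum response factor inputs, 19 reached 5 CPM, and in iWAT_DFAT against eWAT_DFAT *Rps6ka3*, the kinase RSK2, was past 2-fold upward (119 against 54.2 CPM; 1 of 19, background 8.29%) and *Mrtfa*, the actin-sensing partner of serum response factor, downward (58.0 against 121; 1 of 19, background 3.95%), with *Rps6ka2* next (4.77 against 8.72). In iWAT_DFAT against iWAT_SVF *Rps6ka3* was higher (119 against 45.1 CPM, background 9.91%) and *Rps6ka2* lower (4.77 against 13.1, background 5.18%), with *Map2k4* next (80.6 against 46.4). None of 19 was past 2-fold between the SVF libraries (background 2.94% and 3.94%) or the eWAT libraries (6.44% and 6.67%), where *Srf* (10.3 against 15.9 CPM in iWAT_SVF and eWAT_SVF) and *Elk3* (64.8 against 34.9 CPM in eWAT_DFAT and eWAT_SVF) differed the most. RNA levels of kinases say nothing of their activity.

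Feedback genes, the phosphatases and Sprouty proteins that damp MAP kinase signalling, were divided. *Dusp1*, itself an immediate early gene, was at 248, 69.5, 101 and 137 CPM in iWAT_DFAT, eWAT_DFAT, iWAT_SVF and eWAT_SVF, with the same order as *Fos*. *Dusp4* was at 10.3 CPM in iWAT_DFAT and 43.7 in eWAT_DFAT, and *Spry4* at 4.73 and 16.5. In iWAT_DFAT against eWAT_DFAT 2 of 12 were at least 2-fold higher (background 8.29%) and 3 lower (3.95%). Against iWAT_SVF, 5 of 11 were higher in iWAT_DFAT (background 9.91%) and 1 lower (5.18%). In eWAT_DFAT against eWAT_SVF 6 of 12 were higher (background 6.44%) and 1 lower (6.67%). Between the SVF libraries none of 12 was past 2-fold in either direction (background 2.94% and 3.94%). *Dusp5*, *Dusp6* and *Dusp10* were past 2-fold upward in DFAT against SVF in both depots, with *Dusp10* at 69.8 against 9.68 CPM in iWAT and 34.3 against 8.95 in eWAT. *Spry1* was past 2-fold downward in both (6.97 against 51.7 and 14.2 against 55.8). The share of all genes past 2-fold in both depots was not counted. *Dusp5* in iWAT (38.1 against 8.79 CPM) and *Dusp4* in eWAT (43.7 against 9.40) were the other large ratios, and *Spry4* (3.24 against 5.98), *Dusp5* (8.79 against 15.0) and *Dusp6* (7.80 against 12.1) had the largest between the SVF libraries.

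Among other bZIP genes, whose proteins can pair with Fos or Jun proteins, the stress factor *Atf3* was past 2-fold in iWAT_DFAT against eWAT_DFAT (22.9 against 8.84 CPM), and *Maff* (39.9 against 66.1) was not. In iWAT_DFAT against iWAT_SVF *Atf3* (22.9 against 6.16 CPM), *Nfe2l2* (291 against 98.8) and *Maf* (90.9 against 33.6) were higher. In eWAT_DFAT against eWAT_SVF 2 of 9 were higher (background 6.44%), *Nfe2l2* (206 against 87.4 CPM) and *Maff* (66.1 against 29.9), and *Maf* was at 68.6 and 133. Between the SVF libraries *Maf* was lower in iWAT_SVF (33.6 against 133 CPM), 1 of 9 (background 3.94%), followed by *Jdp2* (32.6 against 26.2) and *Maff* (24.2 against 29.9).

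**Figure D5:**
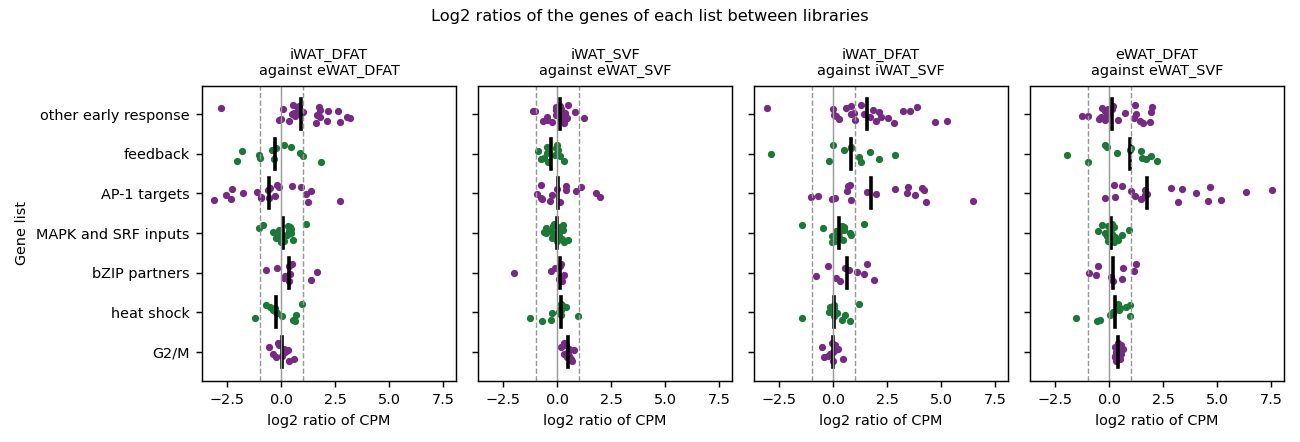
Log2 ratio of CPM (horizontal axis, shared by the panels) of each gene of 7 lists that reached 5 CPM in the higher library, with the median as a black bar and 2-fold as dashed lines. The median of the early response genes is 0.92 and 1.56 in the comparisons with iWAT_DFAT, with *Ccn2* far to the left in both, and the median of the AP-1 targets is 1.76 in iWAT and 1.73 in eWAT for DFAT against SVF, with some genes left of 0.

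Detachment and sorting can switch on early response genes, and heat shock genes and the cell cycle are given here as values that could move with them. The heat shock list summed to 6620, 8430, 6970 and 6750 CPM in iWAT_DFAT, eWAT_DFAT, iWAT_SVF and eWAT_SVF. Abundant chaperones such as *Hsp90ab1* (2580, 3180, 2540 and 2250 CPM) carry much of this sum. The stress-inducible *Hspa1a*, *Hspa1b*, *Dnajb1* and *Bag3* had log2 ratios of 0.61, 0.52, 0.69 and 0.95 in iWAT_DFAT against eWAT_DFAT and 0.76, 0.41, 0.56 and 1.18 against iWAT_SVF. In eWAT_SVF *Hspa1a* and *Hspa1b* were at 9.37 and 12.9 CPM, close to the 9.59 and 13.8 of iWAT_DFAT, and *Dnajb1* and *Bag3* at 32.5 and 53.6, against 53.6 and 136. Of the rest of the list, *Hsph1* had a log2 ratio of 0.04 between the DFAT libraries, and the others were negative, down to -1.21 for *Hspb1*. The part of these genes in the level of *Fos* was not tested. None of the 12 genes was 2-fold higher in iWAT_DFAT than in eWAT_DFAT (background 8.29%) and 1, the small chaperone *Hspb1* (119 against 275 CPM), was lower (3.95%). *Bag3* (136 against 70.4) and *Hspd1* (445 against 738) followed. In iWAT_DFAT against iWAT_SVF *Bag3* was higher (136 against 60.0 CPM, background 9.91%) and *Hspb1* lower (119 against 331, background 5.18%), with *Hspa1a* at 9.59 and 5.66. *Hspb1* was also the 1 gene of the list past 2-fold in the other comparisons, at 331 against 797 CPM in iWAT_SVF and eWAT_SVF (background 3.94% lower) and 275 against 797 in eWAT_DFAT and eWAT_SVF (6.67%). These counts of the list are near the share of all genes. There *Hsph1* (73.4 against 37.4 CPM, and 73.8 against 37.4), *Hspa1a* (5.66 against 9.37) and *Hspd1* (738 against 374) came next. None of the 11 G2/M genes was past 2-fold in any comparison, where the shares of all genes were 2.94% to 9.91% and 0 of 11 is close to them, with medians of 0.01, 0.48, -0.02 and 0.38 for iWAT_DFAT against eWAT_DFAT, iWAT_SVF against eWAT_SVF, iWAT_DFAT against iWAT_SVF and eWAT_DFAT against eWAT_SVF. Their largest ratios were those of *Mki67* (152 against 101 CPM) and *Ube2c* (108 against 162) between the DFAT libraries, *Cenpf* (83.6 against 49.0) and *Top2a* (157 against 97.8) between the SVF libraries, and *Cenpe* (74.6 against 47.9) in eWAT. The time from detachment to lysis of each library was not given in the sources used here, and its part in the levels of the members was not tested.

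Counting with or without introns could also move with a library. Among 8980 genes at 5 CPM or more in all 4 libraries, the quartile with the most intronic sequence, at least 54.7 kb, had a median log2 ratio of 0.23 in iWAT_DFAT against eWAT_DFAT and 0.25 against iWAT_SVF, where the median of all these genes was 0.07. The 204 genes without an intron had medians of 0.05 and -0.01, and the 2608 genes with little intronic sequence (under 10 kb) -0.04 and -0.06. In iWAT_SVF against eWAT_SVF these medians were 0.10, 0.06 and 0.00 in that order, and in eWAT_DFAT against eWAT_SVF 0.13, 0.06 and 0.00. The 3 members without an intron, *Jun*, *Jund* and *Ier2*, differed by 1.59, 0.64 and 1.72 between the DFAT libraries and by 2.01, 0.48 and 2.20 between iWAT_DFAT and iWAT_SVF.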

How the data were processed

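Counts of UMIs per gene and barcode were deposited by the authors for 4 libraries, 1 per group, with empty droplets included. Per the file headers they were made with Cell Ranger 7.1.0, or version 4 for iWAT_SVF, whereas the submitters' processing notes name 7.0.0 and the study's methods describe introns as counted against mm10. CellBender and DoubletFinder, which the study describes for nuclei, were not run here, no doublets were removed, and clusters were not formed. The limits on cells were those stated above, where the study itself used a lower limit of 500 UMIs.

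Levels are summed UMIs as CPM with exact 95% Poisson intervals, ratios have exact conditional binomial intervals, and shares have Clopper-Pearson intervals. PCR copies are collapsed by the UMI, and the intervals cover counting error only. Free RNA is the sum of droplets with 1 to 100 UMIs. With 1 library per group no test across samples was made. A gene was called at 2-fold with 5 CPM or more in the higher library. Correlations are on ln(UMIs + 1) after thinning to 5000 UMIs. The scripts were checked on data with known ratios and correlations. The work was done in Python 3.11.15 with SciPy 1.17.1 for intervals, NumPy 2.4.6, pandas 2.3.3 for tables and matplotlib 3.10.9 for plots.

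The 9 members are all named. List genes with values were taken from the 3 with the largest absolute ratio in each comparison, and the likest genes of a member are the 5 with the highest mean r. Some values that these rules select are not reported here. Some list genes past 2-fold are named beside them, and genes of the marked cells were named after their values were seen. The members and lists were chosen with earlier results of these data known. Alternatives are given in the closing section. The RefSeq promoter and GENCODE M21 annotations are of GRCm38, the build of mm10.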

Additional observations from a re-analysis of the deposited data

Results flagged for a closer look

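A difference between iWAT and eWAT that has opposite signs in the DFAT and in the SVF libraries was found for 6 of the 9 members. The rule asked only for opposite signs beyond counting error, which small ratios also meet at these UMI totals. The share of all genes that meet it was not counted, so the count gives no result about the members as a group. The log2 ratio of iWAT to eWAT was 3.08 in DFAT cells and -0.85 in SVF cells for *Fos*, a gap of 3.93. For *Fosb* the gap was 3.57 (3.39 and -0.18), for *Ier2* 2.56 (1.72 and -0.84), for *Junb* 2.07 (1.42 and -0.65), for *Jun* 1.69 (1.59 and -0.10) and for *Jund* 1.18 (0.64 and -0.55). *Egr1*, *Fosl1* and *Fosl2* had no such change of sign beyond counting error.

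Read the other way, the difference between DFAT and SVF cells had opposite signs in the 2 depots for 4 members, and the share of all genes was again not counted. The log2 ratio of DFAT to SVF was 2.12 in iWAT and -1.81 in eWAT for *Fos*, 2.66 and -0.91 for *Fosb*, 2.20 and -0.36 for *Ier2* and 0.48 and -0.71 for *Jund*, and the gaps are the same 3.93, 3.57, 2.56 and 1.18. Both readings use the same 4 libraries and are 1 observation. With 1 library in each group, the difference was not tested.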

How the results depend on the processing

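The numbers of members past 2-fold were 6, 0, 8 and 2 under 8 of 9 alternatives, which were a lower limit of 500 UMIs, cells above 7500 genes kept, mitochondrial UMIs under 5%, the top 10% of cells by UMIs left out, marked cells of other types left out, G2/M cells left out, median ratio scaling, the mean of each cell's own CPM, and free RNA subtracted at 10%. Of 144 values for the 16 ratios past 2-fold, 143 stayed past it and none changed sign. The exception was *Fosl2* in iWAT_DFAT against iWAT_SVF, with a log2 ratio of 0.93 under median ratio scaling, which lowers that count to 7. The largest shift, 0.42, was that of *Fos* in eWAT_DFAT against eWAT_SVF, from -1.81 to -1.39 without G2/M cells. The 180 values for the other ratios kept their sign and stayed under 2-fold. Of 288 alternative values of r, by ranks or without G2/M cells, 20 moved by over 0.05 and the largest shift was 0.10.

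The number of genes past 2-fold over all genes depended on the minimum level. At 5, 1 and 20 CPM it was 1271, 2068 and 732 in iWAT_DFAT against eWAT_DFAT, 697, 1380 and 355 in iWAT_SVF against eWAT_SVF, 1573, 2489 and 973 in iWAT_DFAT against iWAT_SVF, and 1350, 2281 and 753 in eWAT_DFAT against eWAT_SVF. With median ratio scaling, chosen after seeing the data, it was 1216, 719, 1529 and 1381.

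No paired analysis was possible because each group has 1 library. Differences between cultures, mice and handling cannot be told apart from those between groups. Depth limits single cells, not library levels: each member had at least 3333 UMIs per library.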
